A study of Mus musculus with 155 samples.

Results

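Myelin is the membrane that oligodendrocytes wrap around axons, and the 9 genes described here, out of 55471 in the count tables, mark its assembly. They are Mbp, Cnp, Mag, Mog, Mobp, Cldn11, Ugt8a, Myrf and Enpp6, chosen by name as genes of myelin and of mature oligodendrocytes, and all 9 were matched in the tables. Gene counts came from 42 RNA-seq libraries of KH2 mouse embryonic stem cells (ESCs) with a doxycycline (Dox)-inducible single copy of H3.3 carrying a SNAP and an HA tag, either wild type (WT-H3.3) or with lysine 27 replaced by methionine (H3.3K27M) or leucine (H3.3K27L). All libraries, the WT-H3.3 controls included, came from cells given Dox. The 32 ESC libraries comprised the 3 lines and WT-H3.3 cells under GSK343, an inhibitor of the PRC2 methyltransferase, and each group held 8 libraries, from 2 replicates taken 4, 8, 24 or 72 h into Dox. The 6 libraries of retinoic acid (RA)-treated cells held 1 library per line and Dox time (24 or 72 h). The 4 libraries of ES-derived oligodendrocyte progenitor cells (OPCs) comprised WT-H3.3 and H3.3K27M, again as 1 library per line and time. The OPC cultures were made through embryoid bodies with RA and purmorphamine, an activator of hedgehog signalling, and were not stated to be sorted. The lines were hygromycin-selected colonies, and the number of clones behind a line is not given in the sources used here. All clones may carry a duplication of chromosome 8.

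In mm9, Mbp lies at chr18:82644538-82755029 on the plus strand, Cnp at chr11:100436218-100453043 (plus), Mag at chr7:31684202-31699851 (minus), Mog at chr17:37147691-37160343 (minus) and Mobp at chr9:120058860-120090602 (plus). Cldn11 lies at chr3:31048868-31063246 (plus), Ugt8a at chr3:125568277-125641468 (minus), Myrf at chr19:10282762-10315238 (minus) and Enpp6 at chr8:48072279-48180249 (plus). Enpp6 was left out of the tests with the rest of chromosome 8, and its counts are given as values.

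Oligodendrocyte precursors divide, then leave the cell cycle and switch on a myelin programme that depends on the transcription factor Myrf, acting together with Sox10. Mature cells then make the compact-myelin proteins encoded by Mbp and Mobp, the adhesion proteins Mag and Mog at the innermost and outermost membrane layers, the enzyme Cnp of the cytoplasmic channels, the tight-junction protein Cldn11 and the enzyme Ugt8a, which makes the myelin lipid galactosylceramide. Enpp6, a choline phosphodiesterase, marks oligodendrocytes that are beginning to mature.

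Of the 9 genes, 7 had a promoter in the RefSeq table for GRCm38.p6 (250 bases before to 50 after the start of the gene), and Mbp and Myrf had none there. These promoters fell into groups of low and high CG content, which is shown because PRC2 acts mainly at promoters rich in CG pairs. Below, Mog (chr17:37023349-37023648, minus strand) and Mobp (chr9:120149492-120149791, plus strand) stand for genes at or near 0 reads in the OPC cultures, and Ugt8a (chr3:125938603-125938902, minus strand) for a gene read in all 3 kinds of culture. Capitals mark every CG pair, which reads the same on both strands.
Mog: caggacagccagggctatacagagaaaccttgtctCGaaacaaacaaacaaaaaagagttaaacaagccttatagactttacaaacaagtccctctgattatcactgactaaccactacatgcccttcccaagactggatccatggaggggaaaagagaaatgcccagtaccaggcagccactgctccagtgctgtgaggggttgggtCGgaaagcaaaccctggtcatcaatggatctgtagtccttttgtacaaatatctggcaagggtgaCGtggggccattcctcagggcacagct
Mobp: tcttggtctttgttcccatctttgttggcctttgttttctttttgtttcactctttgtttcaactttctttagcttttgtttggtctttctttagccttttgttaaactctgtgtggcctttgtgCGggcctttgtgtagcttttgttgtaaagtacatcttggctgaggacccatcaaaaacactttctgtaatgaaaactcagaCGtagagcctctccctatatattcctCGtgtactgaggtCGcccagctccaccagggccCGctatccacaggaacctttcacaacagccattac
Ugt8a: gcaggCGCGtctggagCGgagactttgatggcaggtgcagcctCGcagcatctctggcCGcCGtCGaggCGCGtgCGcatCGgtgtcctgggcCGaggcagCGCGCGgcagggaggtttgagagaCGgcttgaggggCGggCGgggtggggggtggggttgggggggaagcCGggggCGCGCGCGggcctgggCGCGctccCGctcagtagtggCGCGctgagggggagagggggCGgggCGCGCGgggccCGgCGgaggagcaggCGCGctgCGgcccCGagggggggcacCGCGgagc
The Mog promoter held 3 CG pairs and that of Mobp 5, against a median of 7 over the 32851 promoters of the table, of which 76.7% and 62.0% held at least as many. The Ugt8a promoter held 40, a number reached by 3.91% of promoters. Among the other members, Enpp6 had 4 CG pairs and the 3 promoters of Mag had 6, 3 and 3, whereas Cnp had 17 and Cldn11 had 24.

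The OPC libraries held 7499258 to 12387113 reads, the RA libraries 2239137 to 22269533 and the ESC libraries 68378 to 21161392. Levels are given as CPM (reads of a gene per 1000000 reads of the library) after TMM scaling over the 42 libraries, and 3 reads, taken as the floor of detection, equalled 0.259 to 0.417 CPM in an OPC library. Intervals and floors cover counting error only. Calls required both a fold change above 2 or below 0.5 and a Benjamini-Hochberg adjusted p under 0.05 over all genes tested, from the quasi-likelihood test of edgeR. The OPC label was checked against its markers. Olig2, the lineage transcription factor, was at 327 and 271 CPM in WT-H3.3 and at 963 and 1014 CPM in H3.3K27M OPC cultures (24 and 72 h), and Cspg4, which encodes the proteoglycan NG2, was at 8.47 and 10.2 against 72.0 and 98.6 CPM. Pdgfra, the growth factor receptor that defines OPCs, was at 15.4 and 22.9 CPM in WT-H3.3 and at only 0.556 and 0.791 CPM in H3.3K27M cultures. The pluripotency factor Pou5f1 had 0 reads in all 4 and was at 0 to 4.75 CPM in RA-treated cells, against 314 to 913 CPM in ESCs. Gene counts cannot show which H3.3 allele a cell carried, so the lines rest on their labels. H3f3a, which encodes H3.3, was at 25.2 and 26.8 CPM in WT-H3.3 and 68.8 and 67.6 CPM in H3.3K27M OPC cultures, and H3f3b, the other H3.3 gene, at 1333 and 1506 against 1059 and 1384 CPM.

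The first comparison asked whether myelin genes differed between H3.3K27M and WT-H3.3 OPC cultures. Mag, Mog, Mobp and Enpp6 were close to absent from both, whereas Cnp, Mbp and Ugt8a were read in all 4 libraries. Mag had 0 reads in all 4 OPC libraries, which over the 4 together allows up to 0.0827 CPM. Mog had a single read, in WT-H3.3 at 72 h, and Mobp a single read, in H3.3K27M at 24 h. Enpp6 had 2 reads, both in WT-H3.3 at 72 h. These 4 genes thus took 4 of 38686347 reads, and neither a difference between the lines nor its absence can be read from them at this depth.

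**Figure D1:**
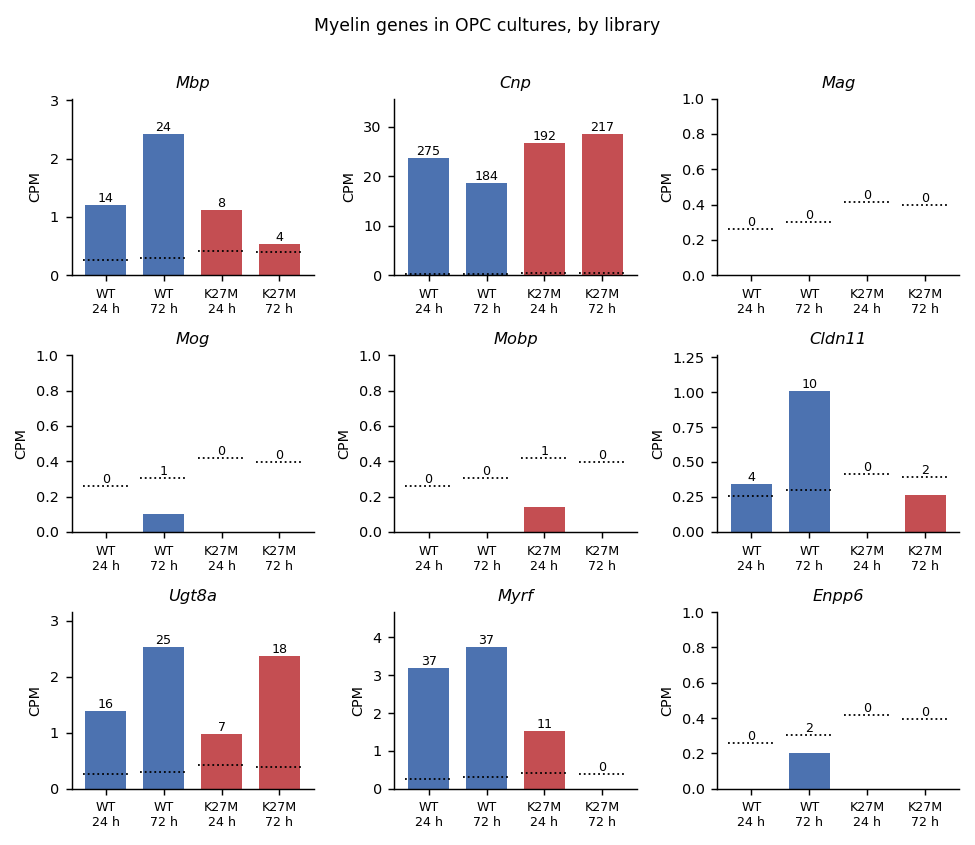
Level of each of the 9 myelin genes in the 4 OPC libraries (CPM, linear axes from 0, 1 bar per library; blue WT-H3.3, red H3.3K27M). Numbers give the reads and dotted lines the level of 3 reads. Mag, Mog, Mobp and Enpp6 stay under that line in every library, and Myrf has 37 and 37 reads in WT-H3.3 against 11 and 0 in H3.3K27M.

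Myrf, the regulator of the group, was lower in H3.3K27M OPC cultures. It was at 3.2 CPM (24 h) and 3.74 CPM (72 h) in WT-H3.3 and at 1.53 CPM (24 h) and 0 (72 h) in H3.3K27M. Both H3.3K27M libraries thus lay below both WT-H3.3 libraries. The fitted log2 fold change was -2.18 (SE 0.72, n = 2 libraries per line, edgeR adjusted p = 0.0253). Its H3.3K27M libraries alone, with 11 and 0 reads, would not have passed the filter on low counts. Myrf was thus tested through WT-H3.3, so its p is no support for a difference, which is read from the values. By reads alone, the ratio of H3.3K27M to WT-H3.3 was 0.478 at 24 h (11 against 37 reads, 95% counting interval 0.220 to 0.957) and 0 at 72 h (0 against 37 reads, upper limit 0.137). Myrf was the only call among the 4 members that passed the filter on low counts, 0 higher and 1 lower, while 28.0% of all 12511 genes tested were called in this comparison (13.0% higher and 15.0% lower), so a count of 1 in 4 is not a result about the group. The call rests on the 72 h library of H3.3K27M with 0 reads: without it the log2 fold change was -1.14 (adjusted p = 0.0869), and DESeq2 gave -2.17 with an adjusted p of 0.434.

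Mbp was at 1.21 and 2.42 CPM in WT-H3.3 and at 1.11 and 0.527 CPM in H3.3K27M cultures (24 and 72 h), from 14, 24, 8 and 4 reads. The 4 values did not overlap between the lines, but at 24 h they were nearly equal (ratio 0.919, interval 0.334 to 2.35) and the distance came from 72 h (0.218, interval 0.0548 to 0.633). The difference was not called (log2 -1.12, SE 0.58, adjusted p = 0.128). Cldn11 had 4 and 10 reads in WT-H3.3 and 0 and 2 reads in H3.3K27M cultures, too few for the filter. Over both times its ratio was 0.208 (2 against 14 reads, counting interval 0.0229 to 0.904), with no test between libraries. Ugt8a was at 1.38 and 2.52 CPM in WT-H3.3 and at 0.973 and 2.37 CPM in H3.3K27M, so the lines overlapped and the 72 h library was the higher in each (log2 -0.19, 95% interval -1.21 to 0.82, adjusted p = 0.779).

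Cnp was the only member above 4 CPM in OPC cultures, at 23.8 and 18.6 CPM in WT-H3.3 and 26.7 and 28.6 CPM in H3.3K27M. Both H3.3K27M libraries were above both WT-H3.3 libraries, and the difference was small and not called (log2 0.39, SE 0.18, adjusted p = 0.0926). Cnp shares 8912 bases, exons included, with Dnajc7, a co-chaperone gene of the opposite strand at 245 to 344 CPM in the OPC libraries. Whether the counting used strand is not given in the sources used here, so reads of the 2 genes cannot be told apart where they overlap. Cnp had 7.18 reads per 100 of Dnajc7 in WT-H3.3 and 9.18 in H3.3K27M OPC cultures, and Dnajc7 itself differed by log2 0.05 (SE 0.18, adjusted p = 0.821). The median of the 4 members tested was -0.66, beside 0.00 over all genes tested.

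Of 45 other myelin and mature oligodendrocyte genes, 27 were tested in the OPC comparison, with 4 called higher, 7 lower and 16 not called (median log2 0.30). Over all genes tested, 13.0% were called higher and 15.0% lower, the background for each list in this comparison. The 4 with the lowest p were all lower in H3.3K27M. Apod, a lipid carrier, fell from 56.4 and 46.8 to 0.834 and 1.05 CPM, Stmn4, a tubulin-binding protein, from 19.9 and 18.7 to 1.95 and 1.19, Ndrg1 from 13.1 and 16.2 to 0.834 and 0.527, and Car2, a carbonic anhydrase, from 51.6 and 51.9 to 9.73 and 13.6. Apod and Ndrg1 passed the filter on low counts only through WT-H3.3, so they could only come out lower. None of these 4 is confined to oligodendrocytes. Of 21 regulators and committed-precursor genes, 17 were tested, with 8 higher, 5 lower and 4 not called (median 0.78). Id4, an inhibitor of differentiation, fell from 69.0 and 80.1 to 2.50 and 4.48 CPM and Nkx6-2, a homeodomain factor of oligodendrocytes, from 40.4 and 28.2 to 1.11 and 1.19. Sox8 rose from 30.7 and 24.8 to 139 and 128 CPM and Olig1 from 151 and 163 to 574 and 673, both transcription factors of the lineage. Sox10, the partner of Myrf, was at 1.90 and 3.33 CPM in WT-H3.3 and 0.139 and 0.527 CPM in H3.3K27M cultures. It passed the filter on low counts only through WT-H3.3, and its H3.3K27M value at 24 h was under the floor of 0.417 CPM. Its difference, counted among the 5 lower, is therefore given as values, with no test. Among the regulators named here, Myrf, Sox10, Nkx6-2 and Id4 were lower by their values and Olig1, Olig2 and Sox8 higher. The 17 tested genes of the list likewise went both ways.

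**Figure D2:**
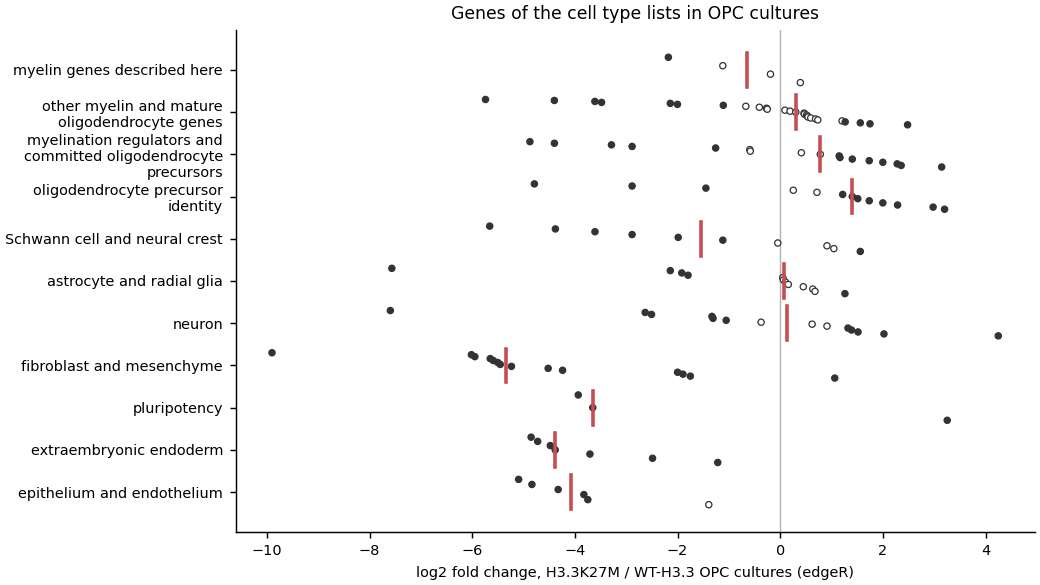
Log2 fold change of H3.3K27M against WT-H3.3 OPC cultures for the tested genes of each list (1 dot per gene; filled, called; open, not called; red bar, median of the list). The fibroblast, extraembryonic endoderm and epithelial lists lie mostly to the left of 0, with medians of -5.35, -4.38 and -4.08, while the oligodendrocyte precursor list has a median of 1.40. Genes near the floor in H3.3K27M are among the tested genes only where WT-H3.3 is higher.

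Markers of other cell types also differed between the lines. Of 14 fibroblast and mesenchyme genes 13 were lower and 1 higher in H3.3K27M OPC cultures, and the list summed to 3507 to 4072 CPM in WT-H3.3 against 692 to 870 in H3.3K27M. All 7 extraembryonic endoderm genes tested were lower (538 to 643 against 43.1 to 53.2 CPM over the 13 genes of the list), and so were 5 of 6 epithelial and endothelial genes (78.6 to 96.9 against 2.90 to 4.03 CPM over 10). Examples are Fn1, encoding fibronectin, at 706 and 552 against 16.3 and 16.9 CPM, Lama1, a basement membrane laminin, at 53.1 and 77.0 against 2.92 and 1.98, and Krt18, a keratin of simple epithelia, at 16.4 and 21.7 against 0.556 and 0.527. Schwann cell and neural crest genes were lower in 6 and higher in 1 of 10. Among the remaining lists, 8 genes were higher and 3 lower of 13 oligodendrocyte precursor genes tested, and 5 higher and 6 lower of 14 neuronal genes. Of 12 astrocyte and radial glia genes 1 was higher and 4 were lower, and of 3 pluripotency genes 1 was higher and 2 were lower. These counts stand beside 13.0% called higher and 15.0% lower over all genes tested. Genes near the floor in H3.3K27M, such as Krt18, were tested only through WT-H3.3 and could only come out lower. In lists tested only in part, the counts of lower genes are thus partly set by the filter. The summed levels cover each whole list and do not depend on it. The part of these cells in the values of Myrf, Mbp and Cldn11 was not tested. In bulk RNA, fewer cells of a type and less RNA per cell cannot be told apart.

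The next comparisons set the 3 kinds of culture side by side, to ask where in these cells the myelin genes were read at all. Mbp and Myrf were highest in RA-treated cells, and Mog and Mobp in undifferentiated ESCs. Myrf was at 21.6 to 110 CPM in the 6 RA libraries (median 47.9), at 1.61 to 13.1 CPM in the 32 ESC libraries (median 3.53) and at 0 to 3.74 CPM in the 4 OPC libraries. Every RA library was above every OPC library and every ESC library that can be ranked. The ESC library of H3.3K27L replicate 2 at 72 h cannot, as 3 of its 68378 reads equalled 39.2 CPM. It gave the 13.1 CPM of Myrf and the 0 of Mbp and Ugt8a in ESCs. Against WT-H3.3 ESCs, the log2 fold change of Myrf in WT-H3.3 RA-treated cells was 3.57 (SE 0.45, edgeR adjusted p = 1.57e-08), and in WT-H3.3 OPC cultures it was -0.24 (SE 0.56, adjusted p = 0.704). Mbp in RA-treated cells was likewise above all other libraries that can be ranked. It was at 7.95 to 19.5 CPM in RA libraries, 0 to 6.55 CPM in ESC libraries and 0.527 to 2.42 CPM in OPC libraries. The difference between RA-treated and undifferentiated WT-H3.3 cells was 3.62 (SE 0.41, edgeR adjusted p = 1.22e-09). Mbp and Myrf were both lower in WT-H3.3 OPC cultures than in WT-H3.3 RA-treated cells (Mbp -2.99, SE 0.61, adjusted p = 0.000136, and Myrf -3.81, SE 0.73, adjusted p = 5.54e-05).

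**Figure D3:**
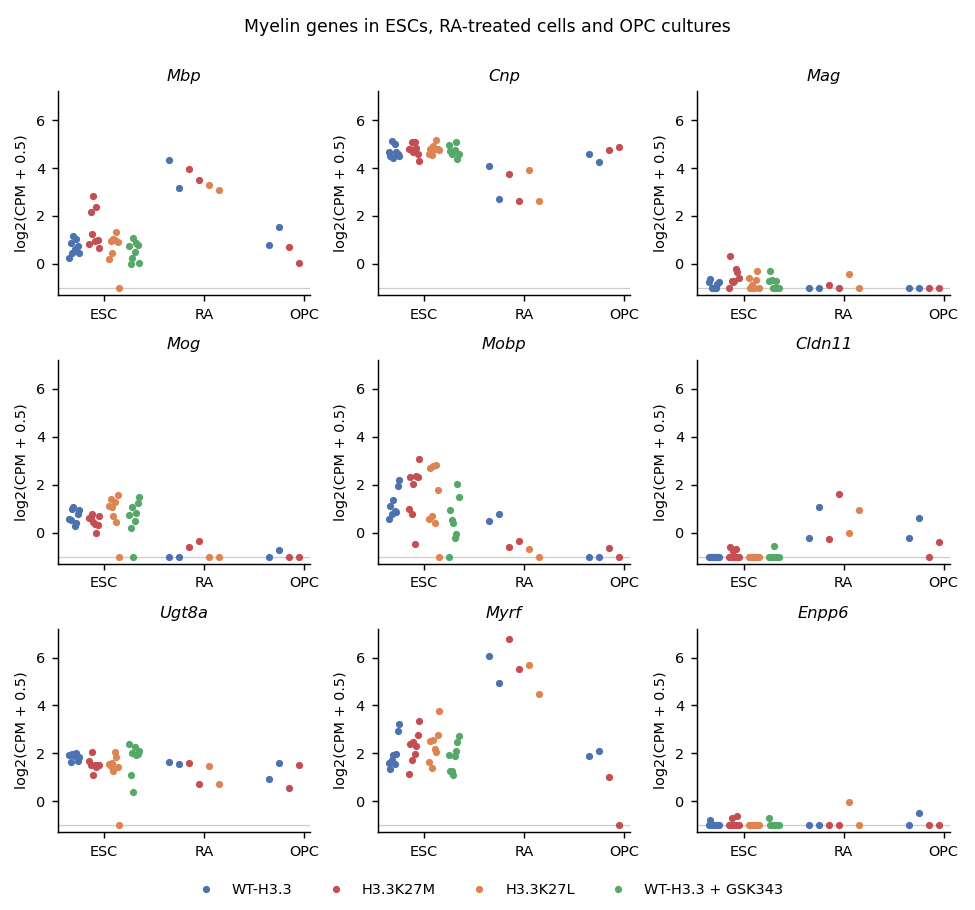
Level of each member as log2(CPM + 0.5) in 32 ESC, 6 RA and 4 OPC libraries (1 point per library, coloured by line and treatment; the grey line at -1 marks 0 reads). Myrf and Mbp sit highest in RA-treated cells, whereas Mog and Mobp leave the grey line mainly in ESCs.

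Cldn11 was read mainly in differentiated cultures. It had 4 reads in all over the 32 ESC libraries, 28 of which had 0, and 0.335 to 2.58 CPM in the RA libraries and 0 to 1.01 CPM in the OPC libraries. All 8 WT-H3.3 ESC libraries were at 0, so that WT-H3.3 RA-treated cells were at least 23.3-fold and WT-H3.3 OPC cultures at least 20.7-fold higher, taking 3 reads over the ESC group as the floor. In H3.3K27M it had 2 reads in OPC cultures and 3 in ESCs (ratio 2.99, counting interval 0.250 to 26.1), which shows no difference at this depth. Cldn11, Mobp and Mog passed the filter on low counts in the joined tables only through the cultures where they were high, so their differences from ESCs are given as values, with no test. Mobp had the opposite course. It was at 0 to 8.00 CPM in ESCs (median 1.47), 0 to 1.21 in RA-treated cells and 0 to 0.139 in OPC cultures, and was at least 15.1-fold lower in WT-H3.3 OPC cultures, with 0 reads, than in WT-H3.3 ESCs. Cnp was at 19.1 to 35.0 CPM in ESCs and 18.6 to 28.6 CPM in OPC cultures, which overlapped, and at 5.68 to 16.5 CPM in RA-treated cells, where all 6 libraries were below every library of the others, the shallow H3.3K27L library left aside. Dnajc7, which overlaps Cnp, was also lower in RA-treated cells, at 130 to 258 CPM against 223 to 481 CPM in ESCs. Between WT-H3.3 RA-treated cells and ESCs it differed by log2 -0.74 (SE 0.23, edgeR adjusted p = 0.00658, not called). Cnp had 6.85 reads per 100 of Dnajc7 in RA-treated cells, 8.24 in ESCs and 8.00 in OPC cultures. Whether reads of Dnajc7 were counted for Cnp was not tested. Ugt8a overlapped between all 3, at 0 to 4.73 CPM in ESCs, 1.14 to 2.64 in RA-treated cells and 0.973 to 2.52 in OPC cultures, and was called in none of the 4 comparisons of culture types. Mag never passed 0.771 CPM and Enpp6 never passed 0.475 CPM in any of the 42 libraries.

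Mog was at 0 to 2.48 CPM in ESCs (median 1.12), and it has a strongly read neighbour there. Its annotated end lies 111 bases from the end of Zfp57, an imprinting factor of ESCs on the opposite strand, and the 2 genes converge. Zfp57 was at 182 to 740 CPM in ESCs, 0.859 to 85.2 CPM in RA-treated cells and 0.395 to 1.11 CPM in OPC cultures. Mog had 0.255 reads per 100 of Zfp57 in WT-H3.3 ESCs, 0.284 in H3.3K27M, 0.287 in H3.3K27L and 0.327 with GSK343. Both genes had lower levels in OPC cultures than in ESCs, for Mog a ratio by reads of 0.0392 (1 against 113 reads in WT-H3.3, counting interval 0.000985 to 0.223). Whether reads of Zfp57 were counted for Mog was not tested.

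**Figure D4:**
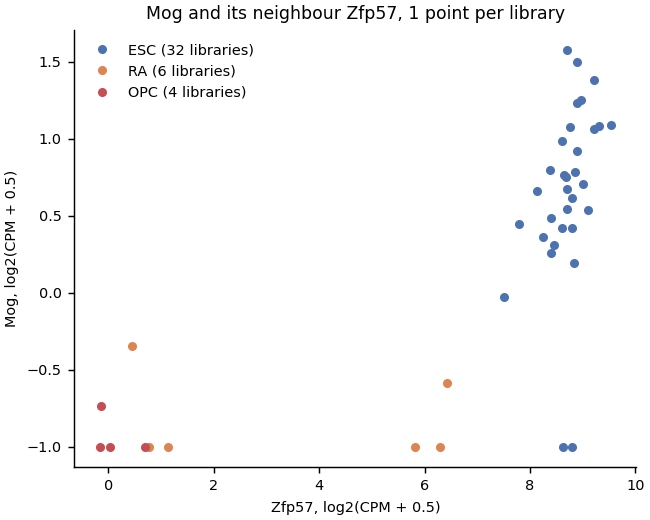
Mog against its neighbour Zfp57, both as log2(CPM + 0.5), with 1 point for each of the 42 libraries. The ESC libraries lie at high Zfp57 and are the only ones in which Mog passes 0.3 CPM, and 2 ESC libraries have 0 reads of Mog.

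In counts, 3 of the 7 members tested were called between WT-H3.3 OPC cultures and ESCs (1 higher, 2 lower), beside 66.6% of all genes (30.3% higher, 36.3% lower). All 3 were Cldn11, Mog and Mobp, which the filter had selected, so this count is no support for a difference of the group, and the counts that follow include them too. Between WT-H3.3 RA-treated cells and ESCs 5 of 7 were called (3 higher, 2 lower), beside 42.7% (23.1% higher, 19.5% lower). Between H3.3K27M OPC cultures and ESCs 4 of 7 were called, all lower (Mbp, Mog, Mobp and Myrf), beside 64.4% (27.6% higher, 36.8% lower). Between WT-H3.3 OPC cultures and RA-treated cells 3 of 7 were called, all lower (Mbp, Mobp and Myrf), beside 41.1% (16.0% higher, 25.1% lower). Single libraries decided some calls. In H3.3K27M OPC cultures against ESCs, Mbp and Myrf lost theirs without the OPC library at 72 h (-1.36, adjusted p = 0.125, and -1.63, adjusted p = 0.100) and Ugt8a gained one (-1.33, adjusted p = 0.0390). Ugt8a was also called in WT-H3.3 OPC cultures against ESCs without the OPC library at 72 h (-1.21, adjusted p = 0.0358). Mobp lost its call against RA-treated cells without any 1 of the 4 libraries compared (adjusted p = 0.0683 to 0.147), and Cnp was then called without the RA library at 24 h (1.82, adjusted p = 0.00487). The medians of the 7 members were -0.27, -0.30, -1.79 and -0.40, beside -0.19, -0.03, -0.32 and -0.16 over all genes. The WT-H3.3 groups are shared between these comparisons. The scaling matters here: with RLE size factors the median of all genes moved to 0.16 between WT-H3.3 OPC cultures and ESCs and to 0.26 between RA-treated cells and ESCs, where the share of calls that were higher went from 54.3% to 65.6%. Cnp then lost its call in RA-treated cells (-0.84 instead of -1.10), as it did without the RA library of WT-H3.3 at 72 h (-0.62, adjusted p = 0.169). Which of the library kits (QuantSeq or KAPA) served which library is not given in the sources used here, so kit and culture type cannot be told apart.

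The RA-treated cells in which Myrf and Mbp were highest also read genes of other lineages. Extraembryonic endoderm genes summed to 1917 and 8529 CPM in WT-H3.3 RA-treated cells against 58.7 to 148 CPM in WT-H3.3 ESCs, with 10 of 11 tested genes higher and none lower. Epithelial and endothelial genes summed to 2075 and 3146 against 851 to 1059 CPM, with 5 of 8 higher and 2 lower. Of the oligodendrocyte precursor genes 7 of 15 tested were higher and 3 lower. Over all genes, 23.1% were called higher and 19.5% lower between these 2 groups. Olig2 and Cspg4 stayed at or under 1.70 and 1.61 CPM in all RA libraries, whereas Pdgfra was at 55.3 to 297 CPM there, above all 4 OPC libraries. By the correlation of log2(CPM + 0.5) over the 42 libraries, the genes most like Mbp among 16478 were Krt19, a keratin of simple epithelia (r = 0.90), Hcn4 (0.89) and Dhrs3 (0.88), and those most like Myrf were Cgnl1, a tight-junction protein (0.91), Greb1l (0.90) and Otud7b (0.90). Mbp and Myrf correlated at 0.74 with each other, but Mbp at -0.64 with Cnp, -0.43 with Mog and -0.02 with Ugt8a. Cnp was most like Gm2a, Idh3a and Cbs (0.90, 0.88 and 0.88) and Ugt8a most like Qpctl (0.86), Limk1 and Alas1 (both 0.79). Mobp was most like Stat4, Gid4 and Tmem211 (0.79, 0.79 and 0.76), Mog like Klk11 (0.91) and a pair of unnamed genes (0.91 and 0.90), and Cldn11 like Tfec (0.93) and another pair of unnamed genes (0.96 and 0.93). None of these neighbours is another member. The libraries share culture type and depth, so the coefficients describe differences between cultures above all.

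Within RA-treated cells, with the 2 times of a line taken as replicates, no difference between the lines was called in the 4 members tested. By edgeR 0 of 4 were called for H3.3K27M and 0 of 4 for H3.3K27L. In both of these fits 0 of 4 had an unadjusted p under 0.05, and DESeq2 called 0. The background was 0% of 12265 genes in each, with 15 and 187 genes at an unadjusted p under 0.05, and 0 and 5 called by DESeq2. With Dox time as a block, 2 genes passed in the H3.3K27M contrast and 451 in that of H3.3K27L, with 0 members among them. In these block fits Myrf for both mutants and Mbp for H3.3K27L had an unadjusted edgeR p under 0.05. Of the 12265 genes, 755 and 2639 did so for H3.3K27M and H3.3K27L. Myrf was at 65.8 (24 h) and 30.2 CPM (72 h) in WT-H3.3, 110 and 45.0 CPM in H3.3K27M and 50.9 and 21.6 CPM in H3.3K27L. The level at 24 h was above that at 72 h in each line. Over both times the lines overlapped, and within each time H3.3K27M was the highest and H3.3K27L the lowest. H3.3K27M differed from WT-H3.3 by 0.62 (95% interval -0.58 to 1.83) and H3.3K27L by -0.41 (interval -1.62 to 0.80). With the block on time the values were 0.62 (interval 0.28 to 0.95, adjusted p = 0.352) and -0.42 (interval -0.76 to -0.07, adjusted p = 0.192), neither called. Mbp was at 19.5 and 8.46 CPM in WT-H3.3, 15.1 and 10.9 CPM in H3.3K27M and 9.39 and 7.95 CPM in H3.3K27L. With the block on time it differed from WT-H3.3 by -0.19 in H3.3K27M (interval -0.74 to 0.35, edgeR adjusted p = 0.966). For H3.3K27L the value was -0.73 (interval -1.305 to -0.15, edgeR adjusted p = 0.1745), and neither was called.

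Cnp differed between the times in these cells. Cnp was at 16.5, 12.9 and 14.7 CPM at 24 h in the WT-H3.3, K27M and K27L lines and at 6.05, 5.73 and 5.68 CPM at 72 h, with no overlap between times. With line in the model the later time was lower (log2 -1.09, SE 0.24, adjusted p = 0.00145), the only call among the 4 members tested beside 42.2% of 11719 genes (19.7% higher, 22.5% lower). Myrf differed by -0.99 (SE 0.14, adjusted p = 5.78e-05), just short of the fold threshold. Mbp (-0.38, SE 0.24) and Ugt8a (-0.51, SE 0.47) did not pass the test, and Cldn11, with 2 to 9 reads a library, was at 0.335 to 0.475 CPM at 24 h and 1.42 to 2.58 CPM at 72 h. The call of Cnp was lost without the 72 h library of WT-H3.3 or of H3.3K27L, as the fold then missed the threshold (log2 -0.99 without WT-H3.3). The median of the 4 members was -0.75, beside -0.06 over all genes. Dox and differentiation ran together, so their times cannot be told apart.

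In undifferentiated ESCs, 0 of the 6 members tested were called by edgeR or DESeq2 for either mutant or for GSK343 against WT-H3.3, although DESeq2 gave 5 of the 6 no adjusted p for H3.3K27M, Mbp among them. The background was 0.0142% of 14076 genes for H3.3K27M (0.00710% higher, 0.00710% lower), 3.46% for H3.3K27L (0.625% higher, 2.83% lower) and 0% for GSK343. At an unadjusted edgeR p under 0.05 the members were Mbp for H3.3K27M, Mog for H3.3K27L and none for GSK343. Of all 14076 genes, 1612, 3247 and 621 reached this level in that order, so 1 member of 6 is not a result about the group. For GSK343, DESeq2 called 0 of all genes. Mbp ranged from 0.672 to 1.72 CPM in WT-H3.3 (median 1.10, n = 8), from 1.10 to 6.55 in H3.3K27M (median 1.67), from 0 to 2.04 in H3.3K27L (median 1.42) and from 0.483 to 1.61 with GSK343 (median 1.04). The high values in H3.3K27M were those of replicate 2 at 4 h (4.01 CPM), 8 h (6.55) and 24 h (4.68), while replicate 2 at 72 h (1.10) and all of replicate 1 (1.26 to 1.86) stayed close to WT-H3.3. The difference was 1.14 (SE 0.33, adjusted p = 0.181), and 1.09 (SE 0.29, adjusted p = 0.0856) with the replicate number as a block, which pairs these 2 lines. Mobp showed a like split between replicates in the mutants. At 4, 8 and 24 h it was at 1.49, 1.20 and 0.225 CPM in replicate 1 and at 4.47, 3.53 and 4.56 CPM in replicate 2 of H3.3K27M, and at 0.978, 1.11 and 0.809 against 6.05, 6.32 and 6.6 CPM in H3.3K27L.

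**Figure D5:**
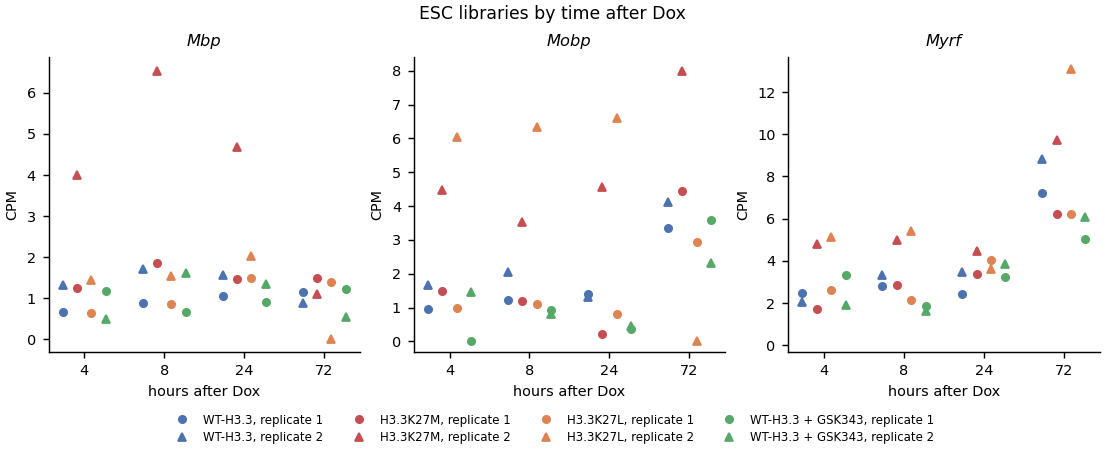
Mbp, Mobp and Myrf in the 32 ESC libraries (CPM, linear axes) against hours after Dox, with 1 point per library, colours for line and treatment, circles for replicate 1 and triangles for replicate 2. Mbp in H3.3K27M and Mobp in both mutants are higher in replicate 2 up to 24 h, and Myrf is highest at 72 h in each group.

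Myrf was highest at 72 h in every ESC group. In WT-H3.3 it was at 2.05 to 3.47 CPM in the 6 libraries up to 24 h and at 7.22 and 8.82 CPM at 72 h. The values were 1.72 to 4.995 and then 6.24 and 9.73 CPM in H3.3K27M, 2.13 to 5.43 and then 6.21 and 13.1 CPM in H3.3K27L, and 1.61 to 3.83 and then 5.05 and 6.09 CPM with GSK343. The value of 13.1 is 1 read in a library of 68378. This order was noticed in the data and not tested, and every group shares it. H3.3K27M and WT-H3.3 differed by 0.31 over all times (95% interval -0.14 to 0.76, adjusted p = 0.618).

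Whether the H3.3K27M effect differed between OPC cultures and ESCs was tested directly. For Mbp the effect was lower in OPC cultures than in ESCs (log2 difference -2.42, SE 0.77, edgeR adjusted p = 0.0259), 1 call among 7 members beside 13.1% of 16478 genes (4.82% higher, 8.30% lower). It combines the lower values at 72 h in OPC cultures with the higher values of replicate 2 in ESCs, and neither of these was called alone. The call was lost without the WT-H3.3 library at 72 h (-1.82, adjusted p = 0.243) and without either H3.3K27M library (-3.02, adjusted p = 0.0542 without 24 h, and -1.99, adjusted p = 0.205 without 72 h). For Myrf the difference was -2.38 (SE 0.94, edgeR adjusted p = 0.0848). Its outcome changed without the H3.3K27M OPC library at 24 h, a fit that left 1 library in that group. Cldn11 had 2 reads in H3.3K27M OPC cultures and 3 in H3.3K27M ESCs, and with the limit of the filter named above it is given no test here. Cnp (0.29, SE 0.38) and Ugt8a (0.16, SE 0.52) had differences near 0.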

How the data were processed

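RNA was sequenced single-end on an Illumina NextSeq500 from QuantSeq or KAPA libraries. The authors aligned the reads with STAR 2.7.1 to mm9, allowing up to 10 mismatches, and deposited raw counts per gene for 42 libraries, in a table for each kind of culture. Nothing was aligned or counted again, and the counter and its strand setting are not given in the sources used here. ChIP-seq data were not analysed here. Identifiers were matched without version to the GENCODE M1 annotation of NCBIM37 (mm9), in which Myrf is Gm98: 32589 of 55471 had a symbol, holding 98.2% of all counts, and 22882 had no chromosome (1.83%). The 1435 genes of chromosome 8 (5.78% of counts) were left out of the tests. No pair of libraries was a copy of another (chi-square per gene of at least 1.85).

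Counts were tested with edgeR 4.0.16 (TMM, filterByExpr, quasi-likelihood F test) on all genes, fitting 1 mean per group and time in ESCs, for each line in OPC and RA tables, for time with line as a covariate in RA, and for each of 9 groups in the joined tables. Calls needed an adjusted p under 0.05 (Benjamini-Hochberg) and a fold above 2 or below 0.5. Per the methods, replicates were biological and made weeks from each other. For OPC and RA lines, with 1 library per time, the 24 and 72 h libraries served as the 2 replicates, so their spread includes Dox time, and by the labels the RA libraries of both times carry the same replicate number. Counting intervals were exact (95%), and intervals of fold changes are 1.96 SE.

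In ESCs, replicate numbers paired WT-H3.3 with H3.3K27M, as differences between replicates correlated at 0.618, 0.717, 0.609 and 0.714 (4, 8, 24 and 72 h) over 8412 genes. Between WT-H3.3 and H3.3K27L they did not (-0.600, -0.711, -0.681 and 0.261), nor with GSK343 (0.005, -0.303, -0.464 and 0.588). The table names the OPC libraries at 72 h replicate 2 where the labels say replicate 1, so line and time identified them.

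The members and the gene lists, written from general knowledge, were chosen with earlier results of these data known. All 9 members are named, with up to 4 genes of the lowest p in the OPC comparison from each of the other myelin and regulator lists, the 2 highest genes in OPC cultures from other lists where used, and a set of defining markers, of which some are not reported here. Lhfpl3, in the precursor list, was not matched. Alternatives were DESeq2 1.42.0, RLE size factors, other filters, chromosome 8 kept, no fold threshold, blocks, fewer libraries in the model and leaving out libraries. The fits were run on simulated counts for 6 of the 12 comparisons, which did not include the H3.3K27L and GSK343 contrasts. Scripts ran in R 4.3.3 and in Python 3.11.15, with Matplotlib 3.10.9, SciPy 1.17.1, pandas 2.3.3 and NumPy 2.4.6.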

Additional observations from a re-analysis of the deposited data

Results flagged for a closer look

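Dixon's criterion was applied to 33 sets of values (a member in a group of 4 to 10 libraries), for which only the ESC groups were large enough. Of these, 6 held a library that stood apart. The rate of about 1 in 20 by chance does not hold for sets at 0 in all libraries but 1. The sets of Cldn11 and Enpp6 given below are of this kind, so the count of 6 is not set against that rate. Mag reached 0.771 CPM in H3.3K27M replicate 2 at 4 h and 0.322 CPM with GSK343 in replicate 2 at 4 h, from 5 and 2 reads. Cldn11 reached 0.180 CPM with GSK343 in replicate 1 at 24 h, Enpp6 0.0730 CPM in WT-H3.3 replicate 2 at 4 h and 0.118 CPM with GSK343 in replicate 1 at 4 h, each from 1 read. Myrf at 13.1 CPM in H3.3K27L replicate 2 at 72 h is 1 read in the shallowest library.

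The H3.3K27M effect on Mbp differed between OPC cultures and ESCs by -2.42 on the log2 scale in the interaction test of edgeR (adjusted p = 0.0259). It kept its call in 1 of the 4 fits that left out an OPC library, the one without WT-H3.3 at 24 h (-2.86, adjusted p = 0.0270).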

How the results depend on the processing

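Of 129 counts of called members recomputed under alternatives, 109 stayed within 1.5 times the reported count. For H3.3K27M against WT-H3.3 OPC cultures, the count of 1 (Myrf) went to 0 with DESeq2 and with at least 10 counts in every library, which left 1 member to test, and ranged from 0 to 1 over the fits without an OPC library. Requiring 10 counts also gave 0 for WT-H3.3 OPC cultures against ESCs, 0 for H3.3K27M OPC cultures against ESCs, 2 for RA-treated cells against ESCs and 0 for the difference of the H3.3K27M effect between OPC cultures and ESCs, as it removed most members. With only the compared libraries in the model, the counts were 2 for H3.3K27M OPC cultures against ESCs, 1 for WT-H3.3 OPC cultures against RA-treated cells and 0 for the difference of the H3.3K27M effect, where Mbp had an adjusted p of 0.0501. That difference gave 2 (Mbp and Myrf) with DESeq2 and with no filter, and 0 to 1 without an OPC library. For RA-treated cells at 72 h against 24 h, the count of 1 became 2 with no fold threshold, 3 with no filter, 2 with 10 counts and 0 to 2 without an RA library. With no filter, Mbp was called in H3.3K27M ESCs, a count of 1. Counts without a library ranged from 3 to 4 for OPC cultures of either line against ESCs, 4 to 5 for RA-treated cells against ESCs and 2 to 3 for WT-H3.3 OPC cultures against RA-treated cells, and were 0 throughout for lines of RA-treated cells and in ESCs. Where nothing else is said, the cause of a change was not tested.

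The log2 fold change of Ugt8a in OPC cultures turned to 0.29 without the WT-H3.3 library at 72 h and to 0.29 without the H3.3K27M library at 24 h. Mag, Mog, Mobp, Cldn11 and Enpp6 did not pass the filter there and have no fold change under its alternatives. With the replicate block, the count was 1 for OPC cultures and 0 for each ESC comparison, and no call changed. The OPC block is the Dox time, and its single pair of differences correlated at 0.282. With Dox time as a block in RA-treated cells, 0 members were called. Requiring 10 counts left no member to test for H3.3K27L against WT-H3.3 ESCs. The fit without the shallow GSK343 library (replicate 2 at 8 h) was added after seeing the data and gave 0. Where 1 sample was left in a group, it was assumed to vary like the other groups. Depth limits Mag, Mog, Mobp, Cldn11 and Enpp6 in OPC cultures, which had under 15 reads a line.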
